A study of Zea mays with 24 samples.

Results

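In the maize shoot, 306 of the 17621 transcript probe sets on the array moved opposite ways when zinc or iron was withheld. A probe set is a group of short oligonucleotides read as 1 transcript, and its value is on the log2 scale. The members were chosen on shoot values alone: the mean of the 3 -Zn arrays and the mean of the 3 -Fe arrays each lay at least 1 (2-fold) from the +Fe+Zn mean, with opposite signs. Of the 306, 258 were lower under -Zn and higher under -Fe, and 48 were higher under -Zn and lower under -Fe. Since these shoot contrasts chose the members, their values there are a description and carry no test. Every other change is the difference of 2 means of 3 arrays on the log2 scale, with its standard error (SE) and adjusted p from 1 limma model over all probe sets.

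Shoots and roots came from hydroponic seedlings of 1 inbred line, SKV616, a quality protein maize. The seedlings spent 12 days in solution without ZnSO4 (-Zn), without Fe EDTA (-Fe), without both (-Fe-Zn) or with both (+Fe+Zn, called the control). Each of the 8 groups has 3 arrays, 24 in all, which the study calls biological replicates. Whether a replicate was a separate culture or a pool of plants is not given in the sources used here, so the p-values measure only the spread between these arrays.

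Grasses take up iron by releasing phytosiderophores of the mugineic acid family, which bind ferric iron in the soil, and by importing the complex through yellow stripe transporters at the plasma membrane. Members of the same oligopeptide transporter superfamily move metal chelates between tissues, and several transporters of divalent metals carry zinc as well as iron. In the leaf, iron sits in the photosystems, cytochromes and ferredoxins, and zinc in carbonic anhydrase, in superoxide dismutases and in many DNA-binding proteins.

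The lowest value was 2.24 on every array, held by 21.6 to 29.3% of its probe sets. A transcript at this value is not above background, and a change that ends there is understated. The tissue labels were checked against fixed markers. Of 14 leaf marker probe sets, 2 (me3 and psah1) are members, and the array means of the other 12 were 9.76 to 10.1 without Zn, 10.8 to 10.9 without Fe and 8.68 to 9.57 without both in the shoot, against 10.9 to 11.0 in its control and 4.90 to 5.59 in the root. The mean of these 12 was thus lower in the -Zn and -Fe-Zn shoots and not higher in the -Fe shoot. Single markers differed from it. Without Fe, pep1 rose from 12.9 to 14.7 and a ppdk1 probe set from 13.4 to 14.3. In contrast, mdh6 fell from 13.2 to 12.6 and psan1 from 13.5 to 12.3. Of 7 root marker probe sets, PIP2-5 is a member, and the array means of the other 6 were 4.51 to 5.03 without Zn, 4.49 to 4.58 without Fe and 4.40 to 4.56 without both in the shoot, against 4.65 to 4.71 in its control. In the root the same 6 lay at 6.23 to 6.38, 5.12 to 5.21 and 5.71 to 6.09, against 7.19 to 7.35 in its control. The list means set the tissues apart, but not every marker did. Under +Fe+Zn, the leaf marker pep4 was 4.53 in the shoot and 4.77 in the root, and a ppdk1 probe set 6.18 and 7.89. Another ppdk1 probe set was near the lowest value in both tissues. Of the root markers, pht1 was 6.79 in the shoot and 5.77 in the root, and PIP2-4 11.1 and 11.4. The part of these markers in the members' changes was not tested. Fewer cells of a type and less RNA per cell cannot be told apart in such bulk tissue. Replicate 1 of root -Fe-Zn stood apart: the lowest correlation between 2 arrays of that group was 0.952, and 0.974 in the other groups.

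Another signal moved with the members. In 3 control transcripts of the array (cyclophilin, ubiquitin and Gapdh), the middle minus the 3′ probe set averaged -6.27 (-6.51 to -5.89) on the -Fe shoot arrays, against -9.26 (-9.33 to -9.18) on the +Fe+Zn shoot arrays. It was -9.27 under -Zn and -9.81 under -Fe-Zn. In the root, 3′ BioB averaged 12.5 without both, against 5.40 in its control. The part of these single control signals in the members' changes was not tested. With the middle minus 3′ signal as a covariate of the model, 175 probe sets met the rule in the direction of the 258 (125 of them members). In the direction of the 48, 79 met it (32 of them members). This covariate was chosen after seeing the data, extrapolates for shoot -Fe and has a slope drawn mainly from the root -Fe-Zn arrays.

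**Figure D1:**
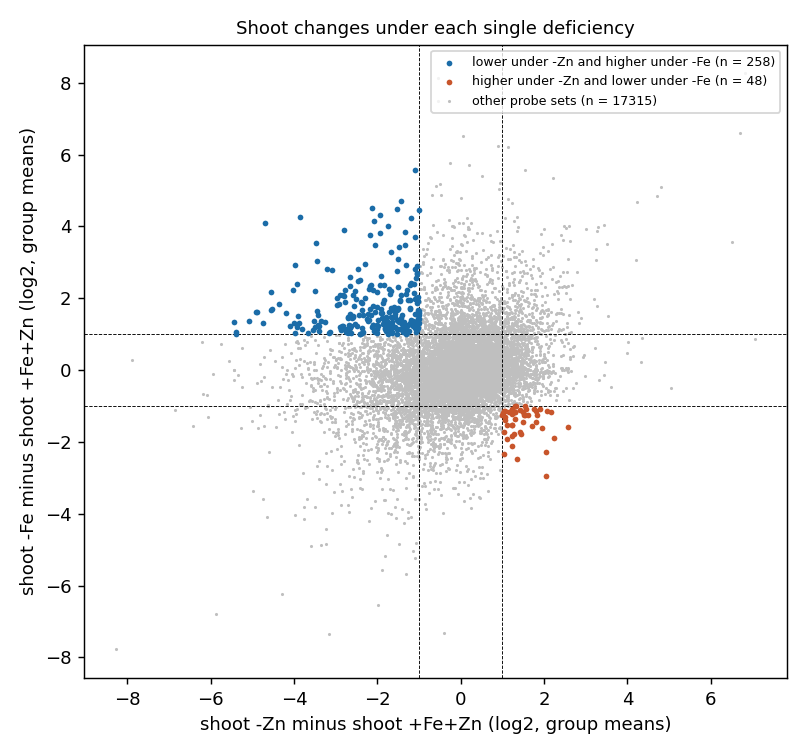
Change of each probe set in the shoot on the log2 scale, -Zn minus +Fe+Zn on the x axis and -Fe minus +Fe+Zn on the y axis. The 258 probe sets lower under -Zn and higher under -Fe lie in the upper left, the 48 of the opposite direction in the lower right, and the other 17315 are grey.

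The median member of the 258 stood at 5.09 in the -Zn shoot, 8.96 in the -Fe shoot and 5.37 in the -Fe-Zn shoot, against 7.29 in the +Fe+Zn shoot. Its median change was -1.89 under -Zn (range -5.44 to -1.0) and 1.5 under -Fe (range 1.00 to 5.58). The 3 -Zn arrays all lay below the 3 control arrays in 256 of the 258, where 24.1% of all 17734 probe sets did so, and the 3 -Fe arrays all lay above in 258, where 25% did. For the 48, the median levels were 6.78 without Zn, 3.63 without Fe and 5.65 without both, against 5.06 in the control. Their median change was 1.34 under -Zn (range 1.00 to 2.58) and -1.25 under -Fe (range -2.95 to -1.01), with no overlap with the control in any of the 48 under either stress (27.1% of all probe sets lay wholly above under -Zn and 25.4% wholly below under -Fe). The rule used these same arrays, so the separation in both directions comes with the choice of the members and is not a test.

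Many members sat close to the limit. In 57 of the 258 and 15 of the 48, the smaller of the 2 changes was under 1.1, and 52 and 31 further probe sets missed the limit by at most 0.1. Just inside were rf2, a restorer of male fertility, with a smaller change of 1.00, and an unnamed probe set with 1.00. The nearest pair outside had 0.996 and 0.993. In the other direction opr7 (1.00) and an unnamed probe set (1.01) were just inside, and the nearest pair outside had 0.998 and 0.993. A gene name is known for 46 members, 38 probe sets of 36 genes in the 258 and 8 in the 48, and the other 260 carry none.

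Metal transport genes of the 258 stayed at or above the control when both nutrients were missing. The gene ys1 (GRMZM2G156599) encodes the transporter of ferric phytosiderophore complexes. Its shoot values were 6.55, 6.64 and 6.67 without Zn, 11.29, 11.01 and 11.10 without Fe and 11.09, 9.47 and 9.62 without both, against 8.82, 8.65 and 8.81 in the control. No array of any stress overlapped the control. The -Fe-Zn shoot stood 1.30 above +Fe+Zn (SE 0.33, limma adjusted p = 0.003). The study reports ys1 as lower, not higher, than the control in the -Fe-Zn shoot. Whether the study assigned the arrays to groups as the sample labels do was not tested.

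In the root, where the rule used no value, ys1 had 2.24, 2.30 and 3.06 without Zn, 4.86, 4.64 and 4.93 without Fe and 6.76, 6.88 and 6.50 without both, against 3.28, 4.16 and 3.40 in the control. The 4 root groups did not overlap. The -Zn root differed from its control by -1.08 (limma adjusted p = 0.022), the -Fe root by 1.19 (adjusted p = 0.01) and the -Fe-Zn root by 3.1 (adjusted p = 1e-06). Root -Fe stood 2.28 above root -Zn (adjusted p = 6e-05). The -Zn call was lost without root -Zn replicate 1 (adjusted p = 0.094), root -Zn replicate 2 (0.089) or root +Fe+Zn replicate 2 (0.13), and the -Fe call without root +Fe+Zn replicate 1 (0.055). Of the 258, ys1 was the 1 probe set that met the same rule in the root, and 0 did so without root -Zn replicate 1, root -Zn replicate 2 or root +Fe+Zn replicate 2.

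An oligopeptide transmembrane transporter (GRMZM2G148800) belongs by name to the same superfamily. In the shoot it had 4.74, 4.59 and 4.81 without Zn, 10.73, 10.50 and 10.98 without Fe and 10.17, 10.60 and 10.20 without both, against 7.82, 7.81 and 8.13 in the control. The -Fe-Zn shoot was thus close to -Fe and 2.40 above +Fe+Zn (SE 0.23, limma adjusted p = 1.1e-07). Its root values lay between 2.70 and 3.49 in the root -Zn, -Fe and +Fe+Zn groups, and at 5.75, 6.61 and 5.64 under -Fe-Zn, a rise of 2.75 (adjusted p = 5.6e-08) seen under neither single deficiency (changes of -0.08 and 0.09).

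The third member of this group is annotated for metal ion transmembrane transport (GRMZM2G178190). Its shoot values were 6.44, 7.04 and 7.12 without Zn, 9.94, 9.84 and 9.77 without Fe and 9.33, 8.27 and 8.73 without both, against 8.20, 8.53 and 8.78 in the control. The -Fe-Zn arrays overlapped the control, with a difference of 0.27 (SE 0.21, limma adjusted p = 0.34). In the root it rose by 1.25 under -Fe (adjusted p = 0.00018) and by 2.34 under -Fe-Zn (adjusted p = 1.5e-07), and had a change of -0.30 under -Zn (adjusted p = 0.43). These 3 probe sets are among 19 assigned to metal homeostasis, of which 3 met the rule. At an adjusted p under 0.05, 39.3% of all probe sets were called in the -Zn shoot (20.3% higher, 19% lower), 33.4% in the -Fe shoot (17% higher, 16.4% lower) and 44.6% in the -Fe-Zn shoot (22.4% higher, 22.2% lower). These shares apply to every gene list given below. Of the 19, 1 was higher and 8 lower in the -Zn shoot (median change 0.00), 3 higher and 7 lower in the -Fe shoot (median -0.39), and 3 higher and 9 lower in the -Fe-Zn shoot.

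**Figure D2:**
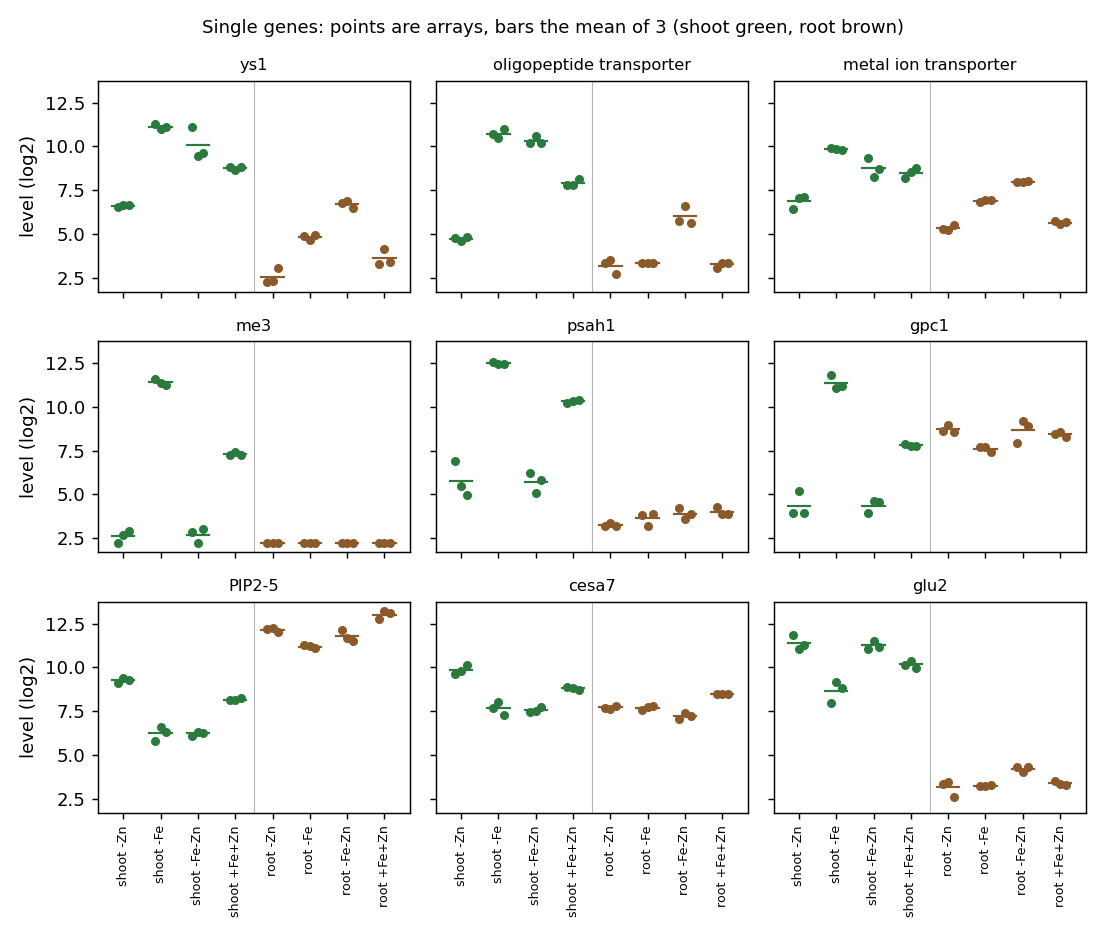
Deposited log2 value of 9 members in the 8 groups, -Zn, -Fe, -Fe-Zn and +Fe+Zn from left to right, with shoot arrays in green and root arrays in brown; points are single arrays and bars the mean of 3. The top row (ys1, the oligopeptide transporter and the metal ion transporter) is above or level with the control in the -Fe-Zn shoot, while me3, psah1 and gpc1 fall there to about their -Zn level.

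Photosynthetic members took the other course. The gene me3 (GRMZM2G085019) encodes the NADP-malic enzyme that releases CO2 in the bundle sheath of C4 leaves. It had 2.24, 2.67 and 2.91 without Zn, 11.61, 11.36 and 11.26 without Fe and 2.84, 2.24 and 3.01 without both, against 7.23, 7.42 and 7.27 in the control. The -Fe-Zn arrays lay with -Zn near the lowest value, a change of -4.61 (SE 0.16, limma adjusted p = 3.4e-13), and every root array was at 2.24.

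The photosystem I subunit gene psah1 (GRMZM2G451224) changed by -4.55 under -Zn and 2.17 under -Fe, and its 3 -Fe arrays lay within 12.42 to 12.57. Its -Fe-Zn change in the shoot was -4.62 (SE 0.36, limma adjusted p = 1.2e-08). A probe set for the Rubisco small subunit (GRMZM2G113033) had 3.57, 4.14 and 4.47 without Zn, 12.51, 12.08 and 11.94 without Fe and 2.87, 2.95 and 3.62 without both, against 7.63, 7.88 and 8.20 in the control. Its -Fe-Zn change of -4.76 carried a large error (SE 1.45, adjusted p = 0.012), since its root arrays ranged from 4.24 to 11.95.

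The beta subunit of the chaperonin that binds the Rubisco large subunit (GRMZM2G095252) was at 2.38, 2.73 and 2.36 without Zn, 9.80, 9.11 and 9.30 without Fe and 2.49, 2.41 and 3.18 without both, against 6.47, 6.41 and 6.54 in the control. Its -Fe-Zn change was -3.78 (SE 0.42, limma adjusted p = 7.6e-07), whereas another probe set of this gene changed by 0.22, 2.51 and 1.2. None of psah1, the Rubisco small subunit and the chaperonin was called in any single root contrast with +Fe+Zn.

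Most probe sets of the photosynthetic lists did not meet the rule. Of 15 probe sets of C4 and Calvin cycle enzymes, 2 were members (me3 and the Rubisco small subunit), and the list had 1 higher and 11 lower in the -Zn shoot (median change -0.96), 3 higher and 0 lower in the -Fe shoot (median -0.10) and 0 higher and 12 lower in the -Fe-Zn shoot. Of 13 photosystem and antenna probe sets, psah1 was the 1 member, and of the list 0 were higher and 7 lower without Zn (median change -0.63), 2 higher and 3 lower without Fe (median -0.11), and 0 higher and 10 lower without both.

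Glycolytic enzymes are among the named members, gpc1 and eno1 with the largest changes of them; phi1 (phosphohexose isomerase) and gpc2, chosen after their values were seen, had a smaller change of 1.18 and 1.03. The gene gpc1 (GRMZM2G046804), cytosolic glyceraldehyde-3-phosphate dehydrogenase, had 3.91, 5.18 and 3.91 without Zn, 11.82, 11.08 and 11.17 without Fe and 3.92, 4.60 and 4.54 without both, against 7.90, 7.77 and 7.77 in the control. Its -Fe-Zn change in the shoot was -3.46 (SE 0.33, limma adjusted p = 1.3e-07), where another gpc1 probe set changed by 0.63, and it was called in no root contrast with +Fe+Zn. The gene eno1 (GRMZM2G064302), enolase, had 3.08, 3.52 and 3.36 without Zn, 8.60, 8.26 and 8.08 without Fe and 3.01, 2.24 and 3.08 without both, against 6.37, 5.68 and 5.85 in the control.

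The -Fe-Zn change of eno1 in the shoot was -3.19 (SE 0.53, limma adjusted p = 6.9e-05). In the root its sign under -Zn was the opposite of the shoot's: it had 9.78, 9.91 and 9.92 under -Zn against 7.47, 7.69 and 7.33 under +Fe+Zn, a rise of 2.37 (adjusted p = 0.0029). Its root -Fe-Zn arrays were spread over 6.76, 9.92 and 9.49, replicate 1 being the low one.

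The other named members of the 258 span electron transfer, protein folding, transcription and ion pumping, and most followed -Zn. The ferredoxin gene fdx3 (GRMZM2G053458), of the kind found in non-photosynthetic tissue, changed by -2.96 without Zn, 2.01 without Fe and -2.67 without both (limma adjusted p = 7.8e-06). CNX (GRMZM2G022180), calnexin, a chaperone of the endoplasmic reticulum, changed by -2.51, 1.99 and -1.72 (adjusted p = 4.5e-06) and fell by 0.84 in the -Fe-Zn root (adjusted p = 0.0079). The B subunit of the vacuolar proton pump (GRMZM2G094497) changed by -2.21, 1.38 and -1.92 (adjusted p = 0.00014), and root -Fe minus root -Zn was -1.49 (adjusted p = 0.004).

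The HMG-box protein gene MNB1b has a pair of member probe sets, with -Fe-Zn changes of -2.58 (limma adjusted p = 3.7e-05) and -4.71 (adjusted p = 1.1e-06). The cysteine protease gene mir3 changed by -1.94 without Zn, 4.33 without Fe and -1.67 without both (adjusted p = 0.0047). ATP-D changed by -2.07, 4.14 and -2.22 (adjusted p = 1.8e-10), with root arrays at or near the lowest value, and sfp7 (GRMZM2G068212) changed by -1.90, 1.60 and -2.18 (adjusted p = 3.1e-07). A ribosomal protein gene, RPL10 (GRMZM2G087233), and LOC541975 (GRMZM2G175661) were lower under -Fe-Zn by limma at an adjusted p of 0.027 and 0.018, calls that quantile normalization ended (0.057 and 0.074). The RPL10 call was also lost without shoot -Fe-Zn replicate 2 (0.17) or 3 (0.084) or shoot +Fe+Zn replicate 1 (0.072), 2 (0.053) or 3 (0.057), and the LOC541975 call without shoot -Fe-Zn replicate 2 (0.11) or 3 (0.086) or shoot +Fe+Zn replicate 1 (0.052). LOC100037814 (GRMZM2G075315) had a change of -0.51 (adjusted p = 0.21).

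Over the 38 named probe sets of the 258, 32 were lower and 2 higher in the -Fe-Zn shoot at an adjusted p under 0.05, the 2 being ys1 and the oligopeptide transporter. Of all probe sets, 22.2% were lower and 22.4% higher. This contrast uses the control arrays that the rule used, so the count is not independent of the choice. Among 28 probe sets of cytosolic ribosomal proteins, 2 were members, and the list had 17 higher and 3 lower in the -Zn shoot (median change 0.59) and 18 higher and 1 lower in the -Fe shoot (median 0.65). Among 13 heat shock probe sets 1 was a member, and the list had 6 higher and 3 lower in the -Zn shoot (median change 0.31), 11 higher and 0 lower in the -Fe shoot (median 2.50) and 7 higher and 5 lower in the -Fe-Zn shoot. Lists for tubulin and actin, histones, hormones, sugar metabolism and redox defence held no member.

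Members of the opposite direction included genes of water and potassium transport and of the cell wall. The aquaporin gene PIP2-5 (GRMZM2G178693), a water channel of the plasma membrane, had 9.13, 9.37 and 9.29 without Zn, 5.77, 6.61 and 6.30 without Fe and 6.08, 6.33 and 6.27 without both, against 8.12, 8.11 and 8.22 in the control. The -Fe-Zn shoot lay with -Fe, a change of -1.93 (SE 0.18, limma adjusted p = 8.3e-08). In the root, where its level was higher than in the shoot, it fell under every stress, with changes of -0.87 for -Zn (adjusted p = 0.0014), -1.83 for -Fe (adjusted p = 4.6e-07) and -1.24 for -Fe-Zn (adjusted p = 3.5e-05).

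The cellulose synthase gene cesa7 (GRMZM2G025231) had 9.61, 9.79 and 10.15 without Zn, 7.65, 8.01 and 7.30 without Fe and 7.45, 7.50 and 7.71 without both, against 8.86, 8.82 and 8.69 in the control. It fell by 1.24 in the -Fe-Zn shoot (limma adjusted p = 2e-06), and its root changes were -0.76 for -Zn (adjusted p = 0.001), -0.78 for -Fe (adjusted p = 0.00063) and -1.24 for -Fe-Zn (adjusted p = 5.1e-06). The beta-expansin gene expB7 (GRMZM2G342246), whose product loosens walls, changed by 1.03 under -Zn and -1.72 under -Fe, and by 0.08 under -Fe-Zn (SE 0.15, adjusted p = 0.81); in the -Fe-Zn root it rose by 1.1 (adjusted p = 2.4e-05). Of 30 probe sets of cellulose synthases and expansins, 2 met the rule, 11 were higher and 2 lower in the -Zn shoot (median change 0.07), and 3 were higher and 10 lower in the -Fe shoot (median -0.17).

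The potassium channel gene kch3 (GRMZM2G081666) had 7.80, 7.35 and 7.69 without Zn, 3.96, 4.98 and 4.97 without Fe and 5.27, 5.49 and 5.31 without both, against 5.65, 5.84 and 5.67 in the control. Its -Fe-Zn change was -0.36 (SE 0.19, limma adjusted p = 0.14), and its root arrays were at the lowest value but for 1 at 2.56. The gene opr7 (GRMZM2G148281), an oxophytodienoate reductase of jasmonic acid synthesis, changed by 1.00 under -Zn and -1.26 under -Fe, with a -Fe-Zn change of 0.10 (SE 0.16, adjusted p = 0.74). In the root it repeated the fall under -Fe (-1.21, adjusted p = 1.6e-05), with changes of 0.00 under -Zn and -0.03 under -Fe-Zn.

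The beta-glucosidase gene glu2 (GRMZM2G008247) was the 1 named member of the 48 called higher in the -Fe-Zn shoot. It had 11.86, 11.04 and 11.28 without Zn, 7.97, 9.14 and 8.79 without Fe and 11.05, 11.51 and 11.18 without both, against 10.15, 10.37 and 9.99 in the control, a -Fe-Zn rise of 1.08 (SE 0.27, limma adjusted p = 0.0028). Its root arrays lay between 2.58 and 4.29. LOC541692 changed by 1.24, -2.11 and -2.04 (adjusted p = 1.1e-05), and nthr3 (GRMZM2G073377) by 1.81, -1.45 and -1.09 (adjusted p = 0.0013); the root change of nthr3 under -Fe was 1.47 (adjusted p = 0.00019), opposite in sign to the shoot's.

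Most members carry no gene name. Among the 258, 1 unnamed probe set had 7.97, 8.63 and 9.59 without Zn, 15.50, 15.49 and 15.36 without Fe and 13.35, 13.74 and 14.01 without both, against 11.29, 11.81 and 11.51 in the control, a -Fe-Zn rise of 2.17 (limma adjusted p = 1e-05). Root -Fe stood 1.26 above root -Zn in it (adjusted p = 0.0056). Another changed by -3.46, 3.04 and -3.47 in the shoot (adjusted p for -Fe-Zn = 3.2e-13), and was near the lowest value on every root array.

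In the other direction, 1 unnamed probe set changed by 2.06, -2.95 and -2.86 in the shoot (limma adjusted p for -Fe-Zn = 1.6e-07). A second changed by 2.06 and -2.27, with a -Fe-Zn change of 0.36 (adjusted p = 0.59). Its root values were 4.53, 4.76 and 4.71 under -Fe against 8.20, 8.13 and 8.08 under +Fe+Zn, so that it fell by 3.47 (adjusted p = 6.3e-06). Another unnamed one, chosen after its values were seen, was the 1 probe set of the 48 that met the rule in the root, with root changes of 1.69 under -Zn (adjusted p = 3.4e-05) and -1.14 under -Fe (adjusted p = 0.0011); without root +Fe+Zn replicate 1 it no longer met it.

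When both nutrients were missing, the shoot level of the 258 lay nearer the -Zn level in 241 and nearer the -Fe level in 17. Of the 241, 156 stood between the single deficiencies and 85 below both. This position rests on the same -Zn and -Fe arrays that chose the members. The median distance was 0.22 from -Zn and -3.41 from -Fe, on the log2 scale. Against +Fe+Zn, the median -Fe-Zn change was -1.72 (0.00 over all probe sets), and 205 of the 258 were called at an adjusted p under 0.05, 199 lower and 6 higher, where 44.6% of all probe sets were called (22.2% lower, 22.4% higher). This contrast uses the control arrays that the rule used, so its counts are not independent of the choice.

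The 48 divided almost evenly, 26 nearer -Zn and 22 nearer -Fe, with a median -Fe-Zn change of 0.12. In the shoot, 32 of them were called, 17 higher and 15 lower, where 44.6% of all probe sets were called. The 17 called higher were all nearer -Zn and the 15 called lower all nearer -Fe. The rule nearly fixes this, since it set the -Zn mean above and the -Fe mean below the same control. Thus the 258 as a group lay by -Zn, whereas the 48 held both courses, PIP2-5 and cesa7 on 1 side and glu2 on the other.

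**Figure D3:**
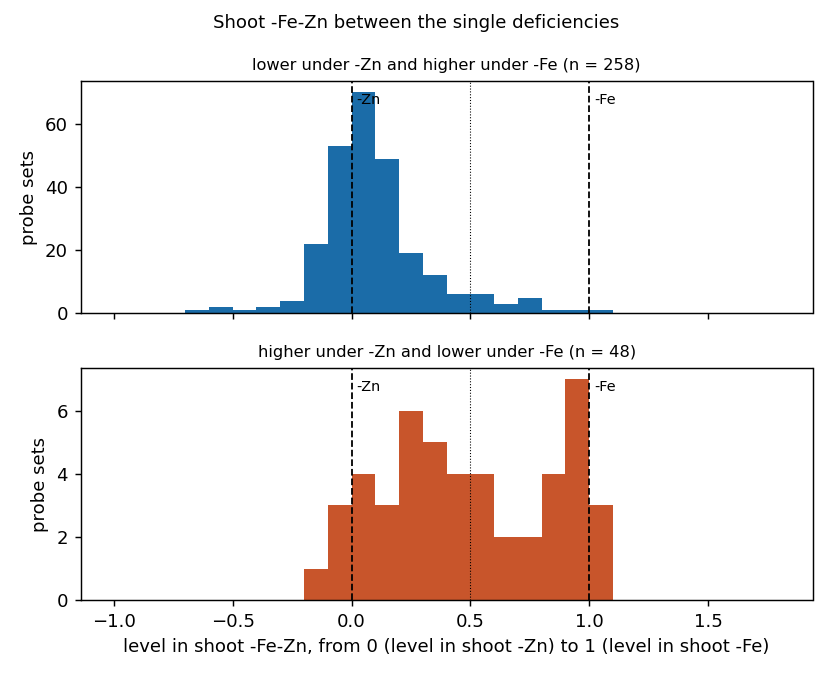
Number of members by their place in the -Fe-Zn shoot on the x axis, where 0 is the member's own -Zn mean and 1 its own -Fe mean, for the 258 and the 48. The 258 gather near 0 (241 nearer -Zn, 17 nearer -Fe), and the 48 spread over both ends (26 and 22).

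The 17 of the 258 that were nearer -Fe in the -Fe-Zn shoot, a group set by the shoot values, include ys1, the oligopeptide transporter and the metal ion transporter. In the root, which played no part in that grouping, 6 of the 17 were higher and 1 lower without Fe, and 7 higher and 3 lower without both. Of the other 241, 17 were higher and 13 lower without Fe, and 27 higher and 24 lower without both. Over all probe sets the root rises were 14.7% under -Fe and 8.09% under -Fe-Zn. The difference between the 17 and the 241 was not tested.

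Meeting the rule in the root was rare among the members and over all probe sets. There the median change of the 258 was 0.20 for -Zn, 0.04 for -Fe and 0.06 for -Fe-Zn, and that of the 48 was 0.00, -0.10 and -0.07, each against 0.00 over all probe sets. The median root level of the 258 was 6.63 for -Zn, 6.55 for -Fe and 6.28 for -Fe-Zn, against 6.59 for the control. That of the 48 was 5.43, 4.55 and 5.05, against 5.06. The lower quartiles of the 48 were 2.43 to 2.78, near the lowest value. The part of these levels in the root changes was not tested. The rule was met in the root by 9 probe sets in the direction of the 258 (0.0511% of the 17621) and by 14 in that of the 48 (0.0795%). Among them were 1 of the 258 (ys1, 0.388%), 1 of the 48 (2.08%) and 0 members in the turned direction.

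Calls here are at an adjusted p under 0.05, without a fold minimum. Counting both directions in the 24-array fit, the share of the 258 called in each root contrast lay below that of all probe sets. Under -Zn, 52 of the 258 were called, 40 higher and 12 lower, where 21.9% of all probe sets were called (13.4% higher, 8.46% lower); quantile normalization gave 27 higher and 15 lower. Under -Fe, 37 were called, 23 higher and 14 lower, where 25.6% were. Under -Fe-Zn, 62 were called, 35 higher and 27 lower, where 28.1% were (8.09% higher, 20% lower); the split was 54 and 19 after quantile normalization and 69 and 21 after median centring, which shifted the median over all probe sets by 0.25. In root -Fe minus root -Zn, 44 were called, 15 higher and 29 lower, where 19.4% were (8.99% higher, 10.4% lower). With a 2-fold minimum added, the share of the 258 was not below that of all probe sets in most contrasts. It was 13.6% against 7.42% under -Zn, 15.5% against 10.8% under -Fe-Zn and 10.5% against 6.41% in root -Fe minus root -Zn. Under -Fe it was 8.53% against 9.38%.

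Some of the counts without a fold minimum depended on single arrays. Without the 3 root -Fe-Zn arrays in the fit, 100 of the 258 were called under root -Zn, where 29.5% of all probe sets were. Without root -Fe-Zn replicate 1, 110 of the 258 were called under root -Fe-Zn. The root -Zn count was 34, 27 and 29 without root -Zn replicates 1, 2 and 3, and 27 and 30 without root +Fe+Zn replicates 1 and 3. The root -Fe count was 23 without root +Fe+Zn replicate 1, and that of root -Fe minus root -Zn was 29 without root -Fe replicate 3. The share of all probe sets called is not given for the fits without 1 array. Those counts therefore cannot be read as particular to the members.

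In the -Fe root, most calls of the 48 had the direction of the -Fe shoot: 20 of the 48 were called, 6 higher and 14 lower, where 25.6% of all probe sets were called (14.7% higher, 10.9% lower); after quantile normalization 3 were higher and 15 lower. Under -Zn 11 were called, 6 higher and 5 lower, where 21.9% were. Under -Fe-Zn 20 were called, 3 higher and 17 lower, where 28.1% were, and the split was 4 and 12 after quantile normalization and 9 and 15 after median centring. In root -Fe minus root -Zn, 16 were called, 2 higher and 14 lower, where 19.4% were.

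**Figure D4:**
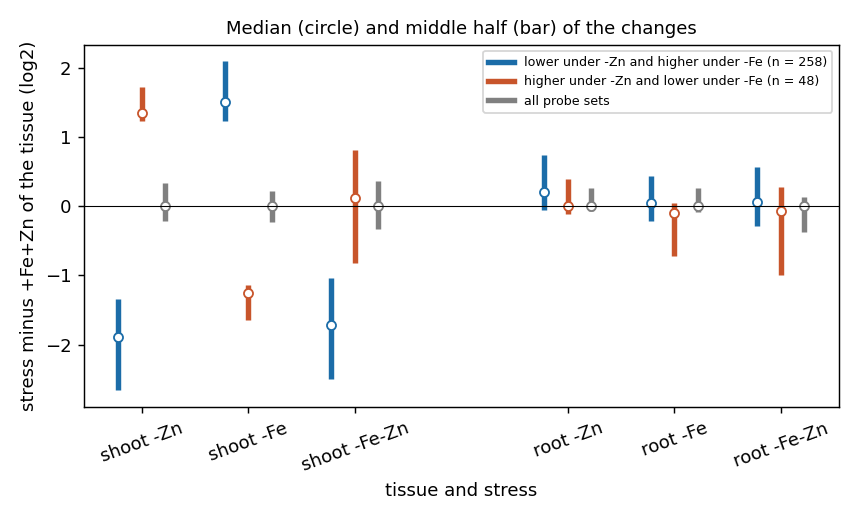
Log2 change from +Fe+Zn of the same tissue for each of the 3 stresses, in shoot and root, for the 258, the 48 and all probe sets; circles are medians and bars the interquartile range. The shoot medians of the 258 are -1.89, 1.5 and -1.72, and their root medians 0.20, 0.04 and 0.06.

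The -Fe-Zn change differed between shoot and root in 183 of the 258 (7 higher and 176 lower in the shoot) and 29 of the 48 (16 higher and 13 lower), by the test of the difference itself in limma, where 42.1% of all probe sets were called (24.4% higher, 17.7% lower). After median centring the 29 were split 13 and 16. The shoot side of this difference shares its control arrays with the rule. By level, 123 of the 258 stood at least 1 higher in the +Fe+Zn shoot than in the +Fe+Zn root and 69 at least 1 lower, against 3210 and 3312 of all 17734; among the 48 it was 21 and 14.

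**Figure D5:**
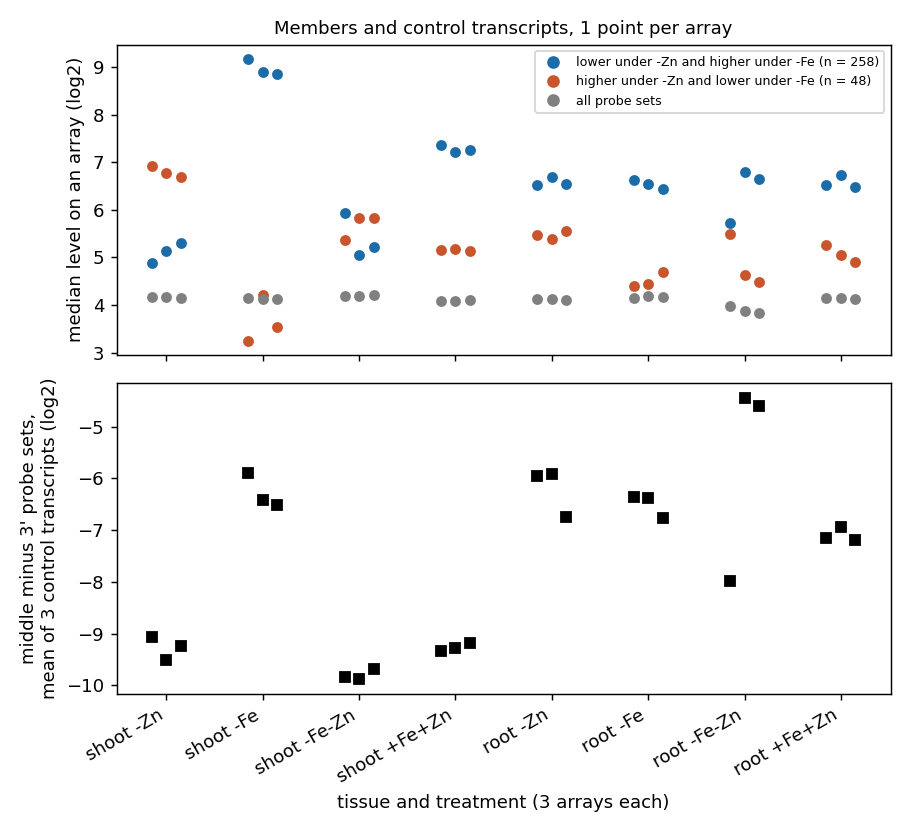
Median log2 value of the 258, the 48 and all probe sets on each of the 24 arrays (upper panel), and the middle minus 3′ log2 signal of 3 control transcripts on the same arrays (lower panel). The 258 have medians of 8.86 to 9.17 on the -Fe shoot arrays and 7.22 to 7.37 on the +Fe+Zn shoot arrays, and root -Fe-Zn replicate 1 lies apart from its group in both panels.

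The array medians of the 258 were 4.87, 5.13 and 5.30 without Zn, 9.17, 8.88 and 8.86 without Fe and 5.94, 5.05 and 5.23 without both, against 7.37, 7.22 and 7.27 in the control. No shoot group overlapped the control, which for -Zn and -Fe comes with the rule. In the root the array medians stayed between 6.44 and 6.80, except for 5.71 on root -Fe-Zn replicate 1. Of all 17621 probe sets, 7.14% carry the suffix _a_at, which the manufacturer gives to probe sets that match several transcripts of a gene; among the 258 it was 56 (21.7%), and among the 48 it was 1 (2.08%). The 56 had median changes of -2.48 without Zn, 1.61 without Fe and -2.43 without both, against -1.74, 1.47 and -1.41 in the members with the plain suffix.

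Other probe sets of the same gene or transcript cluster often did not move as the member did. For 79 of the 258 the array holds 92 such probe sets, of which 12 are members and 39 had both signs alike. Of the 80 that are not members, 3 were at the lowest value on every array, and 47 of the remaining 77 changed by under 1 in both contrasts. The other probe set of the Rubisco small subunit changed by -0.49 without Zn, 0.37 without Fe and -0.75 without both. That of fdx3 changed by 0.01, 0.14 and 0.35, that of eno1 by 0.17, 0.06 and 0.09, and that of RPL10 by 0.50, 0.91 and 1.14. For gpc1 it was -3.95, 0.28 and 0.63, sharing the member's fall without Zn only. A pair for CNX changed by -0.07, 1.18 and 0.52 and by 0.21, 2.00 and 0.91, and the one for kch3 by -0.02, -0.11 and -1.2. In the +Fe+Zn shoot these other probe sets stood at 13.7 for the Rubisco small subunit, 13.1 for eno1, 13.3 for fdx3 and 10.8 for gpc1. The member probe sets of the Rubisco small subunit, eno1 and gpc1 stood lower there, at the control values given above. For kch3 the other probe set was at 3.49, below its member. The courses given above for these genes are thus those of the member probe sets.

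The members named above divided under the covariate for the middle minus 3′ signal. In 14 of the 22 of the 258 and 9 of the 10 of the 48 the rule was still met, with -Fe changes of 2.52 for ys1, 2.37 for the oligopeptide transporter, 1.38 for the metal ion transporter, 4.07 for me3, 2.44 for psah1 and 2.60 for gpc1. It was no longer met by the Rubisco small subunit (-Fe change -2.54), eno1 (-0.01), fdx3 (0.36), the vacuolar pump subunit (0.14), RPL10 (-0.48), LOC541975 (0.36) and both MNB1b probe sets, nor by the second unnamed probe set of the 48 (-0.62). The slope of this covariate comes from spread within groups, and that spread lay mainly in root -Fe-Zn. The standard deviation there was 2.01, against 0.08 to 0.47 in the other groups. Replicate 1 had -7.99, and the other arrays -4.44 and -4.60. A member with flat root values, such as me3, thus gets little slope and keeps its change. Meeting or missing the rule here therefore cannot tell whether the signal had a part in a member's shoot change. The covariate's value for shoot -Fe also lies outside the range of the other shoot groups.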

How the data were processed

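Values were taken as the authors deposited them: log2 values, 1 per probe set and array, for 24 Affymetrix arrays and 17734 probe sets, of which 113 are control probe sets left out of the rule. The study's methods give GCRMA as the normalization, whereas affy, RMA and limma stand without versions in the submitters' notes, and the values did not settle which was used. The deposited table holds no columns of the authors' comparisons, and 0 columns of samples were left unused. Groups and replicate numbers came from the sample labels. For the -Fe-Zn shoot, the study lists ys1 and the oligopeptide transporter as lower than the control. It lists the Rubisco small subunit, the chaperonin beta subunit, eno1 and fdx3 as higher. Each of these directions is opposite to that between the labelled groups used here, and the reason was not tested. Arrays have no read depth, and 3 per group limit the precision: an exact permutation test of 3 against 3 cannot go below 0.10, so none is given.

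In R 4.3.3 with limma 3.58.1, 8 group means were fitted to the 24 arrays (lmFit, eBayes), and p-values were adjusted by Benjamini-Hochberg over all 17734 probe sets. Every adjusted p is from limma, and a member was called at an adjusted p under 0.05. On simulated arrays for root -Zn minus root +Fe+Zn (17734 probe sets), 97% of 200 changes of 2 were recovered. Counts and figures were made in Python 3.11.15. The replicate numbers were checked: same-numbered arrays deviated together (correlation over 0.1) in 4 of 18 shoot pairs and 5 of 18 root pairs, so they do not pair the samples.

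Genes were named from the annotation of the array (1452 probe sets with 1 gene, 1 with several, 16281 with none) and, for 7 members, from the study's list of named probe sets. Lists of genes were matched by symbol and synonym. Since 46 members have a name, the text names all 8 of the 48, the 20 of the 258 with the largest smaller change, the pair of unnamed ones per direction ranked highest by it, and the pair on each side of the limit; the unnamed member of the 48 that met the rule in the root, phi1, gpc2 and the other probe sets of the same genes were chosen after their values were seen. The members and the lists were chosen with earlier results of these data known. Probe sets are given by gene symbol or gene model, not by their array ID. No sequences were printed, since no genome or sequence table was used here.

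Alternatives were quantile normalization, centring of each array on its median, leaving out dim probe sets (no group mean above 3.00, the 40th percentile), a limit of 1.5, 2-fold thresholds, a fit per tissue, an intensity trend with a robust prior, the replicate number as a block and each array left out. Added after seeing the data were the covariate, a fit without the root -Fe-Zn arrays, and all alternatives for the difference between shoot and root.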

Additional observations from a re-analysis of the deposited data

Results flagged for a closer look

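The following values were picked out because the -Fe-Zn change differed between shoot and root, by a limma test of the difference itself at an adjusted p under 0.05. Each value is the shoot change minus the root change on the log2 scale, and the shoot change shares its control arrays with the choice of the members. The difference was called in 183 of the 258 and 29 of the 48, where 42.1% of all probe sets were called (24.4% higher, 17.7% lower).

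Among the transporters it was -1.80 for ys1, which rose in both tissues and more in the root, and -2.07 for the metal ion transporter, which rose in the root. It was -0.69 for PIP2-5, lower in both tissues.

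Among the genes of photosynthesis and glycolysis it was -4.61 for me3, -4.50 for psah1, -6.01 for the Rubisco small subunit, -3.53 for the chaperonin beta subunit, -3.70 for gpc1 and -4.42 for eno1. All of these member probe sets fell in the -Fe-Zn shoot, where other probe sets of the chaperonin, gpc1 and eno1 changed by 1.2, 0.63 and 0.09.

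For the other named members lower in the -Fe-Zn shoot it was -3.45 for fdx3, -0.87 for CNX, -1.96 for mir3, -2.05 and -3.58 for the pair of MNB1b probe sets, -1.98 for the vacuolar pump subunit, -2.21 for ATP-D, -1.94 for sfp7, -2.97 for LOC541975, -1.92 for LOC541692 and -1.36 for nthr3. It was -1.54 for LOC100037814 and -1.02 for expB7, neither of which was called in the -Fe-Zn shoot.

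Of the unnamed probe sets described, those of the 258 had -3.47 and 1.34 and those of the 48 had -3.23 and 1.56. The call was lost in some alternatives, with its direction kept, for PIP2-5, CNX, the Rubisco small subunit and the unnamed probe sets at 1.34 and 1.56.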

How the results depend on the processing

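With the covariate, the -Fe shoot change that chose the members turned sign in 53 of the 258 and 4 of the 48, among them the Rubisco small subunit (-2.54) and RPL10 (-0.48). These turns rest on a slope drawn mainly from the root -Fe-Zn arrays. The next counts leave out the shoot -Zn and -Fe contrasts that chose the members, so these sign turns are not among them. Of 1302 values of named probe sets in the other contrasts under alternatives, 0 turned sign, 1207 kept their call and 95 lost it (79 by leaving out 1 array, 6 by quantile normalization, 5 by the covariate, 3 by a fit per tissue, 1 by median centring, 1 by the replicate block). Of 374 counts of members, 343 stayed within 1.5 times. The members numbered 220 and 62 after quantile normalization (209 and 40 shared), 262 and 43 after median centring (244 and 40 shared), 89 and 6 at a limit of 1.5, 175 and 79 with the covariate, and 232 to 274 and 42 to 64 leaving out 1 array.

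With a 2-fold minimum, with or without adjustment, 20 of the 48 (41.7%) were called in shoot -Fe-Zn, 4 (8.33%) in root -Zn and 12 (25%) in root -Fe-Zn. Of all probe sets, 24.3%, 7.42% and 10.8% were called at the adjusted threshold. In root -Fe it was 9 unadjusted (18.8%, against 9.6% of all) and 8 adjusted (16.7%, against 9.38%). For the 258, the adjusted 2-fold threshold gave 35 in root -Zn (13.6%, against 7.42% of all) and 22 in root -Fe (8.53%, against 9.38%). It gave 40 in root -Fe-Zn (15.5%, against 10.8%) and 27 in root -Fe minus root -Zn (10.5%, against 6.41%). The covariate gave 64 in root -Fe, where 31.2% of all probe sets were called. In root -Fe minus root -Zn it gave 69, where 23.9% were. Without the root -Fe-Zn arrays the counts were 100 in root -Zn (29.5% of all probe sets), 59 in root -Fe (32.8%) and 75 in root -Fe minus root -Zn (28%).

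Leaving out 1 array gave these ranges of calls for the 258 and the 48: shoot -Fe-Zn, 188 to 220 and 27 to 30; root -Zn, 27 to 40 and 9 to 10; root -Fe, 23 to 33 and 16 to 19; root -Fe-Zn, 48 to 110 and 17 to 23; root -Fe minus root -Zn, 29 to 37 and 13 to 15; the difference between shoot and root, 163 to 212 and 24 to 30. It left 234 to 245 and 25 to 27 nearer -Zn, 0 to 1 and 0 to 1 meeting the rule in the root, and 121 to 125 and 20 to 22 at least 1 higher in the shoot. The replicate number as a block gave 201 and 31 calls (shoot -Fe-Zn), 46 and 11 (root -Zn), 34 and 19 (root -Fe), 59 and 20 (root -Fe-Zn), 41 and 15 (root -Fe minus root -Zn) and 179 and 27 (the difference between shoot and root). Shares of all probe sets are not given for the fits without 1 array or with the block. Their counts thus cannot be read as particular to the members. Signal over background limits the transcripts near 2.24, where changes are understated, and the motif search of promoters was not run.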
